A study of Mus musculus with 12 samples.

Results

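Collagens are the proteins from which most of the extracellular matrix is built. The genes described here are the 41 mouse genes with a collagen chain symbol (Col, a type number and an alpha chain number) among the 19057 genes that had at least 1 uniquely named probe on the array. They were taken by symbol alone, from 91 probes, and each gene stands on its probe with the highest mean over all 12 samples in the authors' normalized table. By known molecular class, 11 are fibrillar, 8 belong to basement membranes and 22 are of other kinds. Col6a3, Col12a1 and Col20a1 were not analysed here.

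The study measured total RNA from mouse hearts, 1 Illumina bead array per heart, to find transcripts that change in a model of myotonic dystrophy type 1 (DM1), a disease caused by an expanded CTG repeat whose RNA carries CUG repeats. All hearts carry the strain label FVB. The 3 hearts collected at 72 h and the 3 collected at 1 week came from EpA960/MCM bitransgenic mice aged 2 to 4 months, given tamoxifen at 20 mg/kg to switch on the expanded CUG RNA (labelled CUGexp), by a single injection or by repeated daily ones. The labels do not tie either schedule to a time. The sample descriptions of the 1 week hearts alone end in -R, which the labels do not explain. There were 3 control hearts labelled as untreated MCM. Wildtype mice gave 2 adult hearts and 1 heart of embryonic day 14 (E14). MCM is the tamoxifen-activated Cre recombinase, and the labels call the induction heart-specific. In this line the recombinase is known to be driven by a promoter of heart muscle cells, so the RNA is switched on in those cells, while most collagen is made by other cells. Because the MCM hearts are labelled untreated, effects of tamoxifen and of the repeat transcript cannot be told apart when induced hearts are compared with them.

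Each collagen molecule is a helix of alpha chains wound together. Fibrillar collagens (types I, III and V in the heart) form the cables between muscle bundles, are made mainly by fibroblasts, and are known to increase in cardiac fibrosis. Type IV collagen forms the sheet-like network of the basement membrane around muscle cells and vessels, to which types XV and XVIII attach. The remaining types form beaded filaments (VI), short-chain networks (VIII), anchoring fibrils (VII), bridges on fibril surfaces (IX, XIV, XVI, XXII) or membrane-bound proteins (XIII, XXIII).

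Values are background-corrected, quantile-normalized log2 signals; a difference of 1 is a doubling. A probe counted as detected on an array at a detection p below 0.01, and a gene was tested when its probe was detected on every array of at least 1 group. That held for 25 of the 41 collagens: 7 fibrillar, 6 basement membrane and 12 others. Of the 16 that were not tested, 13 had a probe detected on no array. Of the 25 tested genes, 12 were detected on all arrays, and 10 passed only through the E14 array. The chosen probes of 9 of these (Col2a1, Col27a1, Col4a6, Col8a2, Col9a2, Col13a1, Col22a1, Col23a1 and Col26a1) were detected nowhere else. Those 9 genes were bound to look high at E14, so the E14 counts over tested genes are descriptions. Col11a2, which passed through E14 but was also detected in some adult hearts, stood at 6.70 at E14 against 6.79 in adult wildtype hearts. Calls are from limma with an adjusted p below 0.05 over all 10104 genes tested. Log2 differences are given ± their standard error.

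Between 14202 and 16774 probes were detected per array, 41 or 42 beads lay behind the median probe, and arrays of 1 group correlated at 0.961 to 0.994 across genes. The lowest signals (the 1st percentile of probes before correction) were 54.4 to 59.1 in induced hearts, below the 63 to 76.2 of all other hearts. The second of the 3 hearts at 72 h (replicate 2) stood apart from its group, with an array weight of 0.156 against 3.75 and 0.479 for the other 72 h hearts. Comparisons with the 72 h group, and other calls of named collagens that change when it is left out, are given with and without it. The summed signal of 6 heart muscle cell markers was the highest of the 8 marker lists on every array. The labels number the hearts of adult groups as separate mice, so the spread is between animals.

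The labels give no sex, and the hearts differed in Xist, the RNA of the inactive X chromosome of females. Xist was detected in MCM replicates 1 and 2, in 72 h replicates 1 and 2 and in the E14 heart (log2 signals of 10.9 to 11.53). It was not detected in MCM replicate 3, 72 h replicate 3, the 3 hearts at 1 week and both adult wildtype hearts (4.85 to 5.0). The 1 week hearts therefore differed from 2 of the 3 MCM hearts in Xist as well as in induction, while the 1 week and adult wildtype hearts were alike in it. A fit with a term for Xist, chosen after seeing the data, is given where it changes a call. That term is estimated only from the MCM and 72 h groups, each with 1 heart lacking Xist. Those hearts, replicate 3 of each group, were also low in atrial genes. Myl7 read 9.08 and 10.83 in them and 13.53 to 14.23 in the other MCM and 72 h hearts. The 72 h one was also the lowest of its group in all 12 collagens detected on every array. What the term adjusts for therefore cannot be told apart from these other differences between hearts.

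One week after induction the fibrillar collagens of the adult heart stood at about 3 to 5 times their level in MCM hearts, and Col4a1, Col4a2, Col6a1, Col6a2, Col7a1, Col8a1, Col8a2 and Col16a1 were higher too. In all, 12 of the 25 tested collagens rose and none fell, where 27.3% of all genes tested were called higher. The median log2 difference of the tested collagens was 0.51, and that of all genes was 0. By class, 4 of 7 fibrillar collagens rose (median 1.44), 2 of 6 basement membrane collagens (median 0.33) and 6 of 12 others (median 0.54). Among the 12 collagens detected on every array, 9 were called higher. For each of the 12 called genes the 1 week hearts and the MCM hearts did not overlap, as was so for 98.7% of all genes called higher and 32.9% of all genes tested. Against the 1 MCM heart without Xist, the mean of the 1 week hearts was 1.66 higher for Col1a1, 2.52 for Col1a2, 1.39 for Col3a1, 1.64 for Col5a1 and 1.04 for Col4a1, with no test for a single heart. With the Xist term 14 collagens were called higher, the same 12 with Col14a1 and Col18a1 added, where 26.7% of all genes were called higher. In whole hearts, more cells of a type and more RNA per cell cannot be told apart.

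Col1a1 and Col1a2 encode the chains of type I collagen, the main fibril of scar and of normal heart matrix. Col1a1 had log2 signals of 10.03, 10.24 and 10.09 in the MCM hearts and 11.58, 11.75 and 11.93 at 1 week, a 3.1-fold rise (1.63 ± 0.39, limma adjusted p = 0.00398). The adult wildtype hearts, at 10.25 and 10.14, lay with the MCM hearts, and the E14 heart, at 12.64, lay above all others. Col1a2 had log2 signals of 6.78, 6.65 and 6.49 in MCM hearts and 9.07, 9.0 and 8.97 at 1 week, a 5.17-fold rise (2.37 ± 0.38, limma adjusted p = 0.000329). Its probe was at the edge of detection in the controls, detected in 1 of 3 MCM hearts and 1 of 2 adult wildtype hearts (6.61 and 7.05), and was detected in every 1 week heart.

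Col3a1 encodes type III collagen, which forms fine fibrils together with type I. It read 9.16, 9.56 and 9.45 in MCM hearts and 10.57, 11.14 and 10.79 at 1 week, 2.72-fold higher (1.44 ± 0.41, limma adjusted p = 0.0114). Col5a1, a chain of the type V collagen that helps to start fibrils, read 10.41, 10.30 and 10.49 in MCM hearts and 12.21, 12.29 and 11.90 at 1 week, 3.32-fold higher (1.73 ± 0.30, limma adjusted p = 0.000496). For both genes every 1 week heart lay above every control heart. The chosen probe of Col5a2, the partner chain of type V, was detected on 2 arrays and not tested; another of its 5 probes, which did pass detection, gave a log2 difference of 1.40 at 1 week. A second probe of Col3a1, detected on 9 arrays, gave 1.13. Col2a1, Col11a2 and Col27a1, the other tested fibrillar collagens, were not called and lay between -0.10 and 0.29.

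The sequences before the starts of 3 fibrillar genes that moved together, and of Col8a1 below, are shown so that their regulatory context can be read (RefSeq, build GRCm38.p6, the 250 bases before the annotated start, on the strand of the gene). Capitals mark exact matches, on either strand, to the CCAAT box (CCAAT), the GC box (GGGCGG) and the TATA box (TATAAA); no match overlaps another. Col1a2 lies at chr6:4505368-4505617 on the plus strand, Col3a1 at chr1:45311288-45311537 on the plus strand, Col5a1 at chr2:27886175-27886424 on the plus strand and Col8a1 at chr16:57754738-57754987 on the minus strand.
Col1a2: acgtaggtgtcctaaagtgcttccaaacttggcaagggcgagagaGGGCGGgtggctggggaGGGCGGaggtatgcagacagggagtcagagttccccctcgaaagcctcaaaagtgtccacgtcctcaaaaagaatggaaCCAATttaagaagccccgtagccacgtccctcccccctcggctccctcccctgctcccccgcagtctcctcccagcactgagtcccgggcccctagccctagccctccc
Col3a1: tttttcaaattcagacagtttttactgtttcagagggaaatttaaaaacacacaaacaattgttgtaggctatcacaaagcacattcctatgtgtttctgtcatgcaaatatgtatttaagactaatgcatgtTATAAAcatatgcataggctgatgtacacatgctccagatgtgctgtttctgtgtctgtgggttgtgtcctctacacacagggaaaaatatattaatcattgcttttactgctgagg
Col5a1: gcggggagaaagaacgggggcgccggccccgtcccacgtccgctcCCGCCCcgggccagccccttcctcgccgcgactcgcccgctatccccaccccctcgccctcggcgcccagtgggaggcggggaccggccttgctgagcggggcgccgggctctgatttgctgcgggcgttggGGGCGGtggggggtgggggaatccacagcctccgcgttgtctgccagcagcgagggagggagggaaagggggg
Col8a1: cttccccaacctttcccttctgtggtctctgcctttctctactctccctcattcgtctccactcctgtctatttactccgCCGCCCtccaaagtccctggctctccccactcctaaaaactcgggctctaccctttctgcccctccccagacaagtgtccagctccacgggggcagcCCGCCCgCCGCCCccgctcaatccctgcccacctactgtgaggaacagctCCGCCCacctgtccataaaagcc

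Col1a2 held 1 CCAAT box and 2 GC boxes, Col3a1 held 1 TATA box, Col5a1 held 2 GC boxes and Col8a1 held 4 GC boxes. None of the 3 motifs was present in all 4 windows. In the table, 33 of the 41 collagens had at least 1 window, 36 windows in all. Of these, 36.1% held a CCAAT box, 61.1% a GC box and 13.9% a TATA box, against 33.8%, 32.7% and 12.4% of all 32851 windows. A match is only a match of letters.

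**Figure D1:**
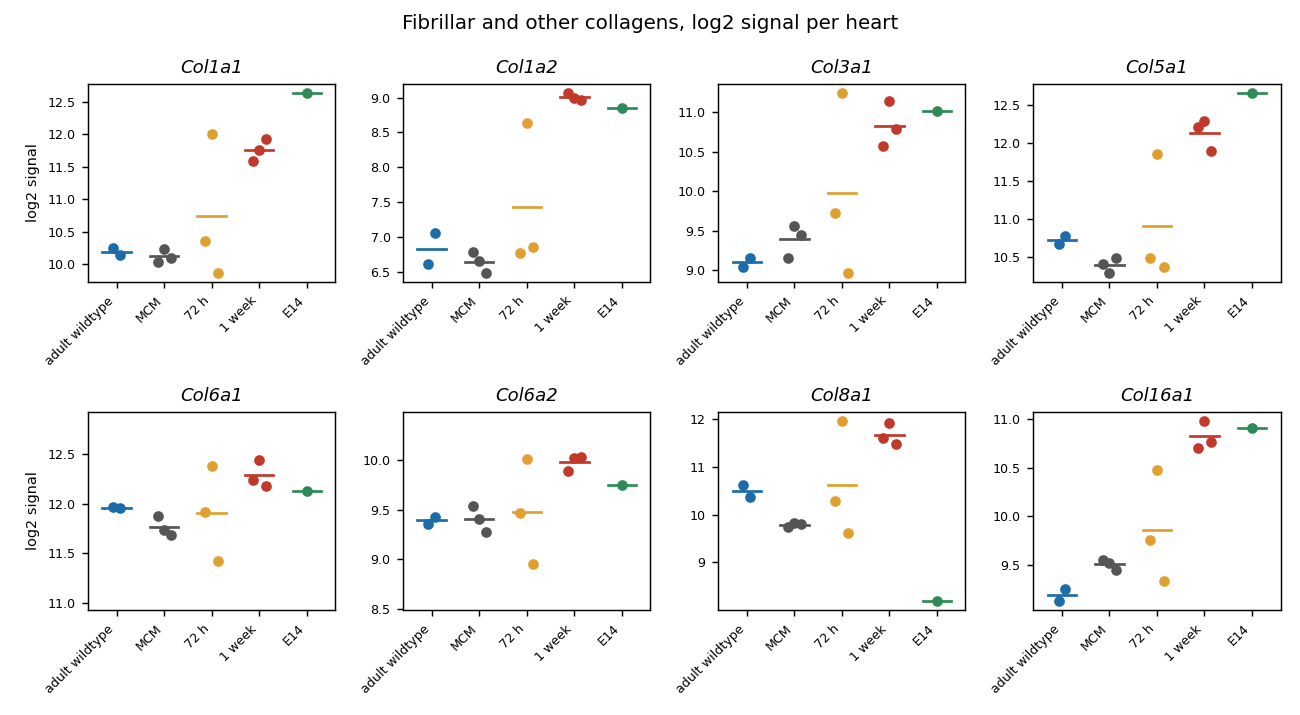
Log2 signal (vertical axes, each panel on its own scale) of 4 fibrillar and 4 other collagens in each heart; points are hearts, coloured by group, and bars are group means. The 3 hearts at 1 week lie above the MCM hearts in every panel, 1 of the 3 hearts at 72 h lies above the other two, and Col8a1 alone is lowest at E14.

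Type IV collagen rose as a pair. Col4a1 read 12.33, 12.38 and 12.42 in MCM hearts and 13.34, 13.55 and 13.51 at 1 week, 2.12-fold higher (1.09 ± 0.26, limma adjusted p = 0.00428). Col4a2 read 12.41, 12.26 and 12.52 in MCM hearts and 13.30, 13.30 and 13.04 at 1 week, 1.76-fold higher (0.81 ± 0.24, limma adjusted p = 0.0142; without MCM replicate 2 its adjusted p was 0.0501). In both genes the adult wildtype hearts lay at the 1 week level and not at that of MCM: 13.44 and 13.55 for Col4a1, and 13.14 and 13.30 for Col4a2. Against adult wildtype the 1 week differences were -0.03 ± 0.29 for Col4a1 (limma adjusted p = 0.947) and -0.01 ± 0.27 for Col4a2 (limma adjusted p = 0.975). The 1 week difference of type IV collagen was thus called against MCM hearts and lay near 0 against adult wildtype hearts.

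The 2 genes are neighbours on opposite strands and run in opposite directions. By the annotated starts each gene begins just inside the other, with no gap between them. In RefSeq (GRCm38.p6) Col4a1 starts at 11312826 of chromosome 8 on the minus strand and Col4a2 at 11312805 on the plus strand, 21 bases apart, so that their windows of the table share 78 bases, which were identical after reverse complementation. The 30 bases around both starts, chr8:11312801-11312830 on the plus strand, are shown with the stretch from one start to the other in capitals.
Col4a1 and Col4a2: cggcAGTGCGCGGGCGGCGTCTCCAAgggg

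The other basement membrane collagens behaved differently from type IV and from each other. Col15a1, which encodes a basement membrane collagen of muscle and capillaries, read 10.32, 10.41 and 10.35 in MCM hearts and 10.58, 10.35 and 10.48 at 1 week (0.11 ± 0.21, limma adjusted p = 0.67). The adult wildtype hearts were at 11.21 and 11.20, above every MCM and 1 week heart, and against them the 1 week hearts were 1.66-fold lower (-0.73 ± 0.23, limma adjusted p = 0.0214). Col18a1, the source of the endostatin fragment, read 9.09, 8.68 and 8.94 in MCM hearts, 9.46, 9.45 and 9.32 at 1 week, and 9.16 and 9.31 in adult wildtype hearts. Its 1 week hearts lay above the MCM hearts without overlap, but the difference did not pass (0.51 ± 0.24, limma adjusted p = 0.0959). It passed without 72 h replicate 2 (limma adjusted p = 0.0126), without 72 h replicate 3 (limma adjusted p = 0.0137), with array weights and with the Xist term (0.82 ± 0.26, limma adjusted p = 0.0197). Col4a5, a chain of another type IV network, gave 0.15 ± 0.17 (limma adjusted p = 0.494), and its second probe gave 0.67, so its 2 probes disagree. Col4a6 was below detection in all adult hearts.

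**Figure D2:**
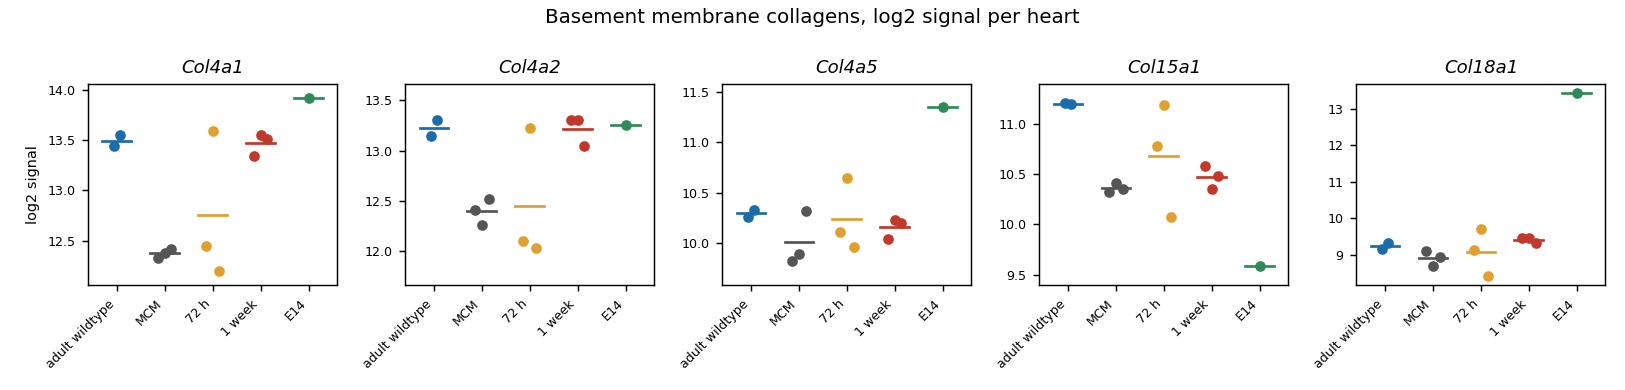
Log2 signal (vertical axes, each panel on its own scale) of the 5 basement membrane collagens detected on all arrays; points are hearts and bars are group means. Col4a1 and Col4a2 are as high in adult wildtype hearts as at 1 week and lower in MCM hearts, Col15a1 is highest in adult wildtype hearts and lowest at E14, and Col18a1 is far highest at E14.

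Among the other collagens, Col8a1 moved most. It encodes a chain of the short-chain type VIII collagen of vessel walls. It read 9.74, 9.82 and 9.80 in MCM hearts and 11.62, 11.92 and 11.49 at 1 week, 3.71-fold higher (1.89 ± 0.42, limma adjusted p = 0.00274), and its second probe gave 1.73. Against adult wildtype hearts, at 10.63 and 10.37, the difference was 1.18 ± 0.47 and did not pass (limma adjusted p = 0.0568), although the groups did not overlap.

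Col16a1, a collagen of fibril surfaces, read 9.55, 9.52 and 9.45 in MCM hearts and 10.70, 10.98 and 10.76 at 1 week, 2.48-fold higher (1.31 ± 0.22, limma adjusted p = 0.000413). Col7a1, which forms the anchoring fibrils known from skin, was detected in all 3 hearts at 1 week (7.28, 7.59 and 7.56), in the E14 heart (6.53) and in no other heart, and was at least 1.54-fold higher at 1 week than in MCM hearts (limma adjusted p = 0.000155). This low signal rests on 1 of its 2 probes, since the other was detected on no array.

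Type VI collagen, the beaded filament beside basement membranes, changed least among the called genes. Col6a1 read 11.88, 11.74 and 11.69 in MCM hearts and 12.24, 12.44 and 12.18 at 1 week, 1.43-fold higher (0.51 ± 0.18, limma adjusted p = 0.0333). Col6a2 read 9.54, 9.41 and 9.28 in MCM hearts and 9.89, 10.02 and 10.03 at 1 week, 1.49-fold higher (0.57 ± 0.20, limma adjusted p = 0.0319). Both calls were lost when any 1 of the 3 hearts at 1 week was left out, with adjusted p up to 0.114 for Col6a1 and 0.0962 for Col6a2 over all alternatives. Col8a2, the partner of Col8a1, was called higher (0.60 ± 0.17, limma adjusted p = 0.0111) but was below detection in both groups, so no fold is given.

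Col14a1, a collagen on fibril surfaces made by fibroblasts, stood at 2 levels. It read 8.23, 8.78 and 7.0 in MCM hearts, 8.72, 9.0 and 6.61 at 72 h, 8.72, 8.80 and 8.75 at 1 week and 6.96 and 7.09 in adult wildtype hearts. It did not differ by the test from MCM hearts at 1 week (0.75 ± 0.55, limma adjusted p = 0.266) and was 3.32-fold higher than in adult wildtype hearts (1.73 ± 0.61, limma adjusted p = 0.0339). A second probe, detected on 7 arrays, put the 1 week hearts at 0.69 and the adult wildtype hearts at -0.24 from MCM, a smaller gap between them. All 4 adult hearts with the low level of the chosen probe lacked Xist and the 4 MCM and 72 h hearts with the high level had it, but the 1 week hearts lacked Xist and were high. With the Xist term the difference at 1 week from MCM was 2.01 ± 0.23 (limma adjusted p = 5.28e-05).

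With the adult wildtype hearts as the control, 9 of the 25 collagens were called higher and 1, Col15a1, lower at 1 week, where 24.5% of all genes were called higher and 24.5% lower. The fibrillar collagens kept their rise: Col1a1 was 2.95-fold higher, Col1a2 4.53-fold (the probe detected in 1 of 2 adult wildtype hearts), Col3a1 3.33-fold and Col5a1 2.66-fold. The probes of Col3a1 disagreed on the controls. The chosen probe put adult wildtype hearts at -0.29 from MCM hearts and the second probe at 1.37, which is above that probe's 1 week difference of 1.13. The rise of Col3a1 against adult wildtype hearts therefore rests on the chosen probe. Col16a1 was 3.08-fold higher and Col7a1 at least 1.52-fold. Col2a1 and Col26a1 were called higher while below detection in both groups. With the Xist term Col6a2 and Col8a1 passed as well (limma adjusted p = 0.0156 and 0.036). No basement membrane collagen was higher, and the medians were 1.41 for the fibrillar class and -0.02 for the basement membrane class.

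**Figure D3:**
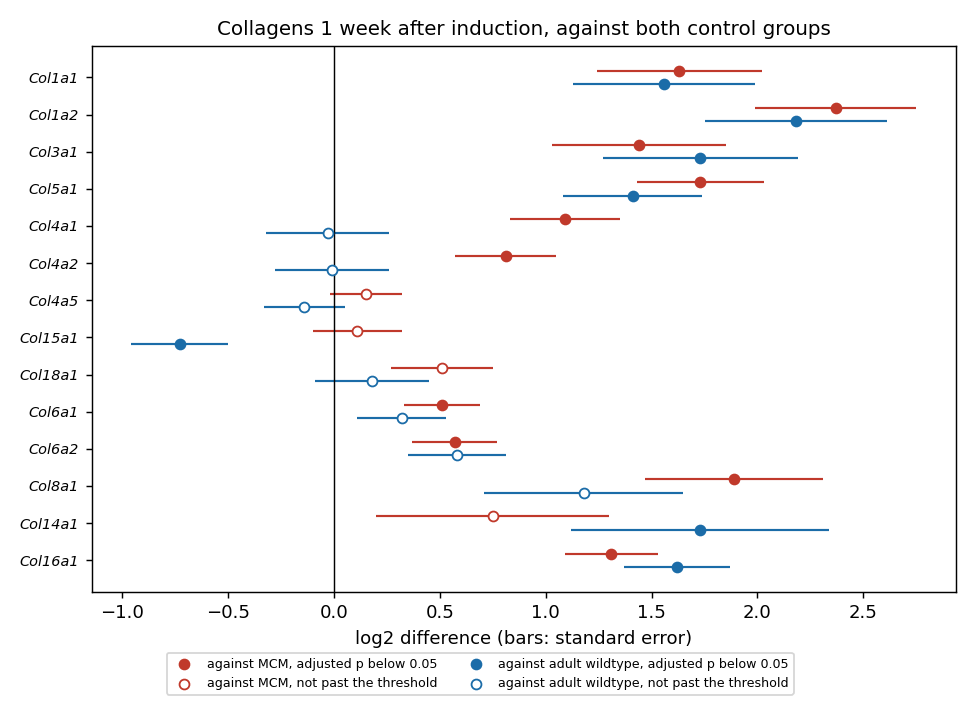
Log2 difference of the 1 week hearts (horizontal axis; bars are standard errors) from MCM hearts (red) and from adult wildtype hearts (blue) for the 14 tested collagens detected on at least 7 arrays; filled points passed an adjusted p of 0.05. The fibrillar collagens lie to the right against both controls, whereas Col4a1 and Col4a2 lie near 0 against adult wildtype hearts and Col15a1 lies below 0.

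Between the adult wildtype and MCM hearts, which carry no induced repeat RNA by their labels, 1 collagen was called. Col4a1 was 2.17-fold higher in adult wildtype hearts (1.11 ± 0.29, limma adjusted p = 0.0461) the 1 call among 25 collagens, where 5.82% of all genes were called in either direction. The call held in 10 of 21 alternatives. Col15a1 was 0.85 ± 0.23 above MCM (limma adjusted p = 0.056) and Col4a2 0.83 ± 0.27 above (limma adjusted p = 0.108), neither past the threshold, although neither gene overlapped between the groups. The median difference was 0.58 over the 6 basement membrane collagens and 0.07 over the 7 fibrillar ones. Without 72 h replicate 2, which enters through the shared spread, 4 collagens were called: Col4a1, Col4a2, Col15a1 and Col8a1, with adjusted p of 2.73e-06, 0.00012, 0.00229 and 0.0123 (limma), where 13.0% of all genes were called. With the Xist term Col4a1 and Col15a1 were called, where 4.84% of all genes were called. The summed signal of 9 endothelial markers was 14.66 and 14.68 in adult wildtype hearts and 14.45 to 14.50 in MCM hearts (2 of 9 called higher), and that of 5 epicardial and mesothelial markers was 8.62 and 8.67 against 7.62 to 7.74 (2 of 5 called higher). Their part in the difference was not tested.

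At 72 h no collagen was called against MCM or against adult wildtype hearts. Against MCM none had an unadjusted p below 0.05 either, and 0.297% of all genes were called; against adult wildtype 6 had an unadjusted p below 0.05, and 7.56% of all genes were called. The group means hide a split. Col1a1 read 10.35, 12 and 9.87 in the 3 hearts, Col3a1 9.73, 11.25 and 8.97, and Col5a1 10.49, 11.86 and 10.37. Col1a2 read 6.77, 8.64 and 6.86. Replicate 2 was near the 1 week level in each of these genes, and the other hearts lay in or close to the MCM range.

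The same heart was the highest and replicate 3 the lowest of the 3 hearts at 72 h in all 12 collagens detected on every array. In 8 of the 12 collagens called at 1 week replicate 2 reached the lowest 1 week heart, and in none did another 72 h heart do so. Col4a1 read 12.45, 13.59 and 12.20, Col4a2 12.10, 13.22 and 12.03, and Col8a1 10.28, 11.97 and 9.62. Col15a1 read 10.78, 11.19 and 10.07, so that replicate 2 lay above the 1 week hearts in a gene that did not change at 1 week against MCM. Col18a1 read 9.13, 9.69 and 8.42, Col6a1 11.92, 12.38 and 11.42, Col6a2 9.47, 10.01 and 8.95, and Col16a1 9.76, 10.48 and 9.33. Col7a1 did not follow: at 5.67, 6.03 and 6.04 it was below detection in every 72 h heart.

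**Figure D4:**
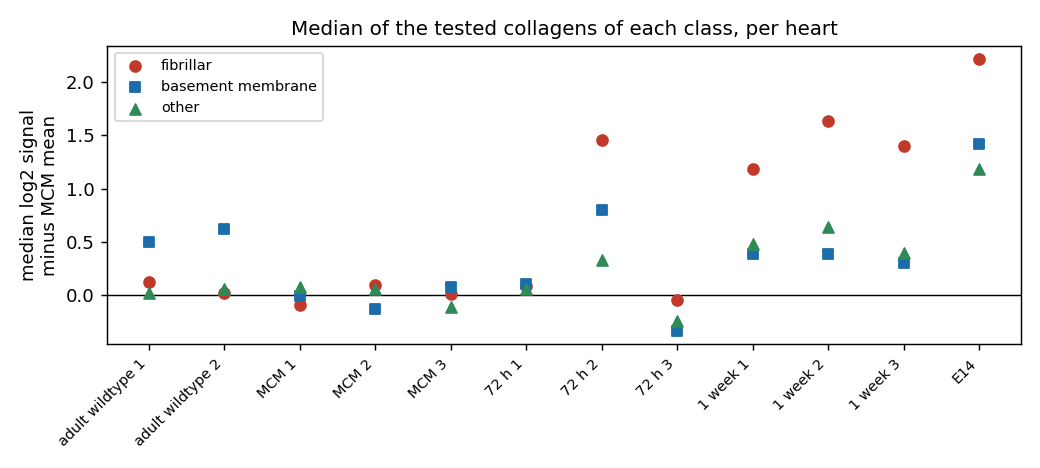
Median over the tested collagens of each class (vertical axis, log2 signal minus the MCM mean of each gene) in each heart along the horizontal axis. The fibrillar median is 1.18 to 1.63 at 1 week, 1.46 in the second 72 h heart and within 0.1 of 0 in the other 72 h hearts, and the basement membrane median is raised in adult wildtype hearts (0.5 and 0.62).

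Between 72 h and 1 week 6 of the 25 collagens rose and none fell, where 23.2% of all genes were called higher. Col1a2 was 3.0-fold higher at 1 week (1.58 ± 0.38, limma adjusted p = 0.00555), with its probe detected in 1 of 3 hearts at 72 h. Col5a1 was 2.34-fold higher (limma adjusted p = 0.00561), Col16a1 1.94-fold (limma adjusted p = 0.004) and Col7a1 at least 1.51-fold (limma adjusted p = 8.98e-05). In these 4 genes the hearts of both times did not overlap. The share of all genes for which this held was not counted, so it adds no separate result. Col4a1 (0.72 ± 0.26, limma adjusted p = 0.0406) and Col4a2 (0.76 ± 0.24, limma adjusted p = 0.0238) also passed, with overlap; the call of Col4a1 held in 10 of 21 alternatives and that of Col4a2 in 17. Without 72 h replicate 2, 13 collagens were called higher, where 28.2% of all genes were. Col1a1, Col3a1, Col6a1, Col6a2, Col8a1, Col8a2 and Col18a1 were added, and the difference of Col1a1 was 1.64 in place of 1.01. Without 72 h replicate 3, 4 collagens were higher and Col15a1 was lower, where 18.9% of all genes were higher and 18.9% lower. With the Xist term 13 collagens were higher, where 23.2% of all genes were.

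In the E14 heart 6 of the 12 collagens detected on all arrays were called above adult wildtype hearts and 2 below. Being a single array, this heart was assumed to vary like the other groups. Against adult wildtype hearts 15 of 25 collagens were higher and 2 lower, where 30% of all genes were called higher and 27.2% lower. Against MCM hearts 18 were higher and 2 lower, where 32.0% of all genes were called higher and 29% lower. Of the calls against adult wildtype, 8 were genes with a chosen probe detected at E14 alone, for which values but no test are given.

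The fibrillar collagens of the adult heart were also those of the E14 heart at a higher level. Against adult wildtype hearts Col1a1 was 5.46-fold higher (2.45 ± 0.58, limma adjusted p = 0.00342). Col5a1, at 12.66, was 3.83-fold higher (limma adjusted p = 0.00284), Col3a1, at 11.02, 3.79-fold (limma adjusted p = 0.0194) and Col1a2, at 8.85, 4.06-fold (limma adjusted p = 0.00992). Col1a2 was no longer called without adult wildtype replicate 1, nor Col3a1 without either adult wildtype heart, with adjusted p up to 0.0507 and 0.0637 (limma). With the Xist term neither passed (limma adjusted p = 0.0856 and 0.169). Col16a1, at 10.91, was 3.29-fold higher (limma adjusted p = 0.000834). The 1 week hearts lay above the E14 heart for Col1a2, on both sides of it for Col3a1 and Col16a1, and below it for Col1a1 and Col5a1.

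The multiplexins Col15a1 and Col18a1, which share their domain plan, went opposite ways. Col18a1 stood at 13.45 in the E14 heart against 9.16 and 9.31 in adult wildtype hearts, 18.5-fold higher (4.21 ± 0.36, limma adjusted p = 1.91e-06). Of its 3 probes a second was detected at E14 alone and gave 3.31. Col15a1 stood at 9.59, below every adult heart, 3.07-fold below adult wildtype (-1.62 ± 0.31, limma adjusted p = 0.000892) and 1.7-fold below MCM (-0.77 ± 0.29, limma adjusted p = 0.039). The call against MCM held in 11 of 20 alternatives.

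Type IV collagen differed little from adult wildtype hearts at E14. Col4a1 stood at 13.92 (0.43 ± 0.39, limma adjusted p = 0.371) and Col4a2 at 13.25 (0.02 ± 0.37, limma adjusted p = 0.96). Without 72 h replicate 2, which enters through the shared spread, Col4a1 passed at the same difference (limma adjusted p = 0.0087), as did Col14a1 (1.68, limma adjusted p = 0.0398, against 0.099 with that heart; -0.19 and not called with the Xist term). Against the lower MCM hearts Col4a1 was 2.92-fold higher (limma adjusted p = 0.00323) and Col4a2 1.8-fold (limma adjusted p = 0.0491, above the threshold in most alternatives). Col4a5, at 11.35, was 2.07-fold above adult wildtype (limma adjusted p = 0.00441), and its second probe gave 1.25, in the same direction. Col4a6 was detected at E14 alone, at least 1.31-fold higher.

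Of the partner chains of type VIII, Col8a1 was lower at E14. It stood at 8.19 at E14, 4.95-fold below adult wildtype (-2.31 ± 0.63, limma adjusted p = 0.00813), and its second probe gave -2.88. Against MCM it was 3.02-fold lower (-1.59 ± 0.60, limma adjusted p = 0.0359), a call lost when any 1 MCM heart was left out. Col8a2, detected at E14 alone, stood at 8.47 there, at least 3.02-fold above adult wildtype. Col8a1 was therefore higher at 1 week against MCM and lower at E14 against adult wildtype, the 1 gene of the 12 raised at 1 week with that pattern. Of those 12, 6 (50%) were also higher at E14 against adult wildtype, which is 40.0% of the 15 higher there: Col1a1, Col1a2, Col3a1, Col5a1, Col8a2 and Col16a1. Over all genes 41% of those higher at 1 week were also higher at E14, and 37.3% the other way round, so the collagens' shares lie near the background. Col8a2 was below detection at 1 week. The 15 include 8 genes, Col8a2 among them, whose chosen probe was detected at E14 alone. These were bound to look high there, so the shares of 50% and 40.0% are descriptions. Type VI collagen did not pass at E14: Col6a1 stood at 12.13 (0.17 ± 0.28, limma adjusted p = 0.635) and Col6a2 at 9.75 (0.35 ± 0.31, limma adjusted p = 0.353).

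For several collagens the chosen probe was detected in the E14 heart and in no adult heart. Col26a1 stood at 10.61 and at 5.06 to 5.74 in the 11 adult hearts, at least 13.3-fold above adult wildtype. Another of its 3 probes was detected on 9 arrays, adult hearts among them, and gave -0.28. The gene was thus detected in adult hearts, and its E14 difference rests on 1 probe. Col2a1, the fibrillar collagen of cartilage, stood at 9.83 and at 5.70 to 6.52 in adult hearts, at least 7.73-fold above adult wildtype, and its other 2 probes gave 5.14 and 3.33. Col9a2, a chain of the type IX collagen that covers type II fibrils, stood at 9.47 and at 5.25 to 6.48 in adult hearts, at least 6.06-fold higher. Col23a1, a membrane-bound collagen, stood at 8.52 and at 5.37 to 6.0 in adult hearts, at least 3.12-fold higher, and its second probe gave 3.23. Col9a1 and Col24a1, not tested on their chosen probes, each had another probe detected at E14 alone, which gave 2.21 for Col9a1 and 2.30 for Col24a1.

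Markers of other tissues moved with these genes. All 3 tested cartilage markers (of 7 listed) were higher at E14 than in adult wildtype hearts, and their summed log2 signal was 12.13 against 10.06 and 10.14. Sox9 stood at 11.87 and was also detected in every adult heart, Matn4 at 9.33 and Hapln1 at 6.46, while Acan, Matn1, Matn3 and Cnmd were not tested. All 5 tested epicardial and mesothelial markers were higher as well, with a summed signal of 11.6 against 8.62 and 8.67. Of both lists, Matn4, Hapln1, Msln, Krt19, Lrrn4 and Upk1b were detected at E14 alone. They entered only through that array and were bound to look high, so both counts are descriptions. Only Sox9 and Upk3b could have come out otherwise. Upk3b, detected on 9 arrays, stood at 11.19 against 7.63 and 7.74 in adult wildtype hearts. The part of these markers in the collagen differences was not tested.

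**Figure D5:**
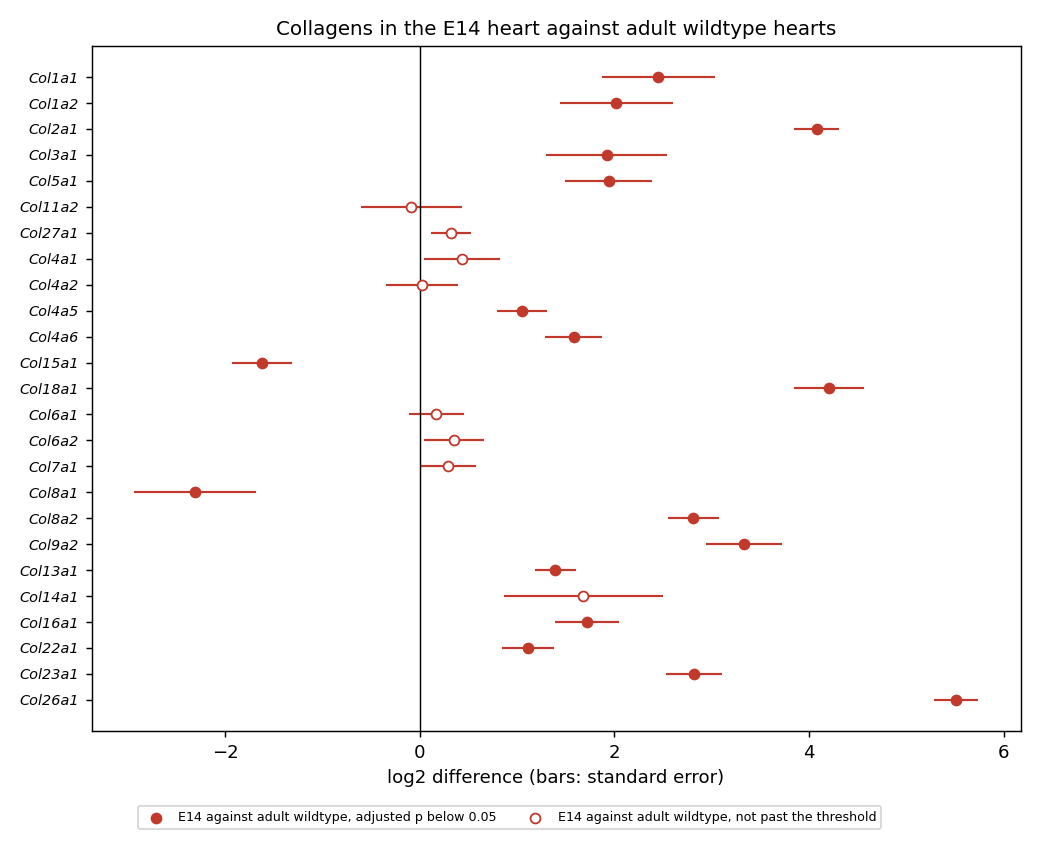
Log2 difference of the E14 heart from the 2 adult wildtype hearts (horizontal axis; bars are standard errors) for the 25 tested collagens; filled points passed an adjusted p of 0.05. Col26a1, Col18a1 and Col2a1 lie farthest to the right, and Col15a1 and Col8a1 are the 2 genes below 0 that passed. The filled points include 8 genes whose chosen probe was detected at E14 alone (Col2a1, Col4a6, Col8a2, Col9a2, Col13a1, Col22a1, Col23a1 and Col26a1). These entered only through the E14 array and were bound to look high, so their points are descriptions.

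Among genes whose products make or process collagen, more were higher than lower at 1 week. Of 23 tested genes of collagen biosynthesis 12 were higher and 2 lower than in MCM hearts (27.3% of all genes were called higher), with a median of 0.61. Lox, the enzyme that starts collagen crosslinks, read 6.36, 6.38 and 7.45 in MCM hearts and 12.15, 12.67 and 12.23 at 1 week, 49.1-fold higher (5.62 ± 0.78, limma adjusted p = 0.000122), with its probe detected in 1 of 3 MCM hearts. Loxl1, its relative, was 3.72-fold higher (limma adjusted p = 0.000249), and P3h2, a prolyl 3-hydroxylase, at least 2.25-fold (limma adjusted p = 0.000106). In the second 72 h heart Lox read 10.83, against 7.08 and 6.92 in the others. The summed signal of the 23 genes was 15.86 in that heart, 15.15 and 14.99 in the others, and 16.04 to 16.06 at 1 week.

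In the lists that follow, counts stand beside the 27.3% of all genes called higher. Of 4 tested collagen receptors and uptake genes, 2 rose: Itga11, an integrin chain of fibroblasts that binds collagen, 3.36-fold (limma adjusted p = 0.00168), and Ddr1, a collagen-binding kinase, 2.1-fold (limma adjusted p = 0.00292). Of 6 small proteoglycans that bind collagen 1 rose, Bgn, 3.0-fold (limma adjusted p = 0.00187), and the list's median was -0.08, so that this list did not exceed the background. Of 11 basement membrane partners 4 rose, near the background share, led by Sparc, a collagen-binding glycoprotein, 2.51-fold (limma adjusted p = 0.000407), the linker Nid1, 1.99-fold (limma adjusted p = 0.000329), and the laminin chain Lamc1, 1.88-fold (limma adjusted p = 3.77e-05). These 3 genes did not all share the 72 h split. Sparc read 12.51, 13.48 and 12.38 there, Nid1 9.96, 9.80 and 10.03, and Lamc1 11.20, 11.27 and 11.30.

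Markers of cell types differed between the groups beside the collagens, and their part in the collagen differences was not tested. Over all genes 27.3% were higher and 26.8% lower at 1 week than in MCM hearts. At 1 week 3 of 7 tested fibroblast markers and 2 of 5 activated fibroblast markers were higher than in MCM hearts and none lower. The summed signal was 15.32 to 15.49 against 15.0 to 15.33 for the first list and 15.44 to 15.67 against 13.77 to 14.87 for the second. The second sum is almost all Acta2, the smooth muscle actin, which alone read 15.41 to 15.65 against 13.7 to 14.84. It therefore does not describe the list as a whole. Tagln, of the same list and detected on 4 arrays, read 5.89 to 6.28 against 6.25 to 7.07 and was not called. Mfap5 was 5.08-fold higher (limma adjusted p = 0.000675), whereas Dcn, a fibroblast gene at high signal, gave 0.06 ± 0.11 (limma adjusted p = 0.695). Postn was not tested on its chosen probe. All 6 tested macrophage markers were higher, with a summed signal of 14.17 to 14.47 against 12.03 to 12.20; at 72 h it was 12.34, 13.48 and 11.95, highest in replicate 2. Of 6 heart muscle cell markers 4 were lower (17.33 to 17.35 against 17.77 to 17.80), of 7 smooth muscle and pericyte markers 4 were lower, and of 9 endothelial markers 2 were higher and 3 lower. Of 5 tested epicardial and mesothelial markers 3 were higher (8.49 to 8.68 against 7.62 to 7.74), and of 3 tested cartilage markers 1 was higher. Of these last lists, Matn4, Hapln1, Msln, Krt19, Lrrn4 and Upk1b were below detection in all adult hearts.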

How the data were processed

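Total RNA of 12 mouse hearts was measured on Illumina bead arrays. Per the file headers, the deposited array files held the mean bead signal of each of 45281 probes, an intensity on a linear scale, and a detection score between 0 and 1; the number of beads was also given. Normalized intensity, also linear, was in a value table deposited by the authors; recomputing it from the array files with the authors' deposited quantile-mapping program (100 quantiles, adult wildtype replicate 1 as the master array) gave every value within 0.001, so its scale is linear, it is not centred, and its column medians were 129.5 to 129.8. Probes were linked to its rows by these values and named through the platform annotation, with identifiers looked up in RefSeq (34885 probes had 1 symbol, 18 several, 10378 none).

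The detection p was taken as 1 minus the score. Background was corrected with nec of limma 3.58.1 in R 4.3.3 (offset 16), and arrays were quantile-normalized before log2 was taken. These log2 values were computed here; the deposited values were linear. Each gene stands on its probe with the highest mean in the value table, and 10104 genes passed the detection filter. limma (lmFit on 5 group means over all 12 arrays, eBayes with an intensity trend, 7 residual degrees of freedom) gave the tests, with Benjamini-Hochberg adjustment. Precision is limited by how few arrays there were. For a probe undetected throughout a group, "at least" gives a bound: each array of that group enters as the lowest detected signal, or as the probe's own signal if higher. The steps were tested on simulated data. The value in every heart was given for Col1a1, Col1a2, Col3a1, Col5a2, Col4a1, Col4a2, Col15a1, Col18a1, Col6a1, Col6a2, Col8a1, Col12a1 and Col14a1 where tested, and values for the 6 further members with the largest called differences (Col26a1, Col2a1, Col9a2, Col8a2, Col23a1 and Col5a1); Col7a1 and Col16a1 were added after their values were seen. Outside the collagens, a list's 3 largest called differences at 1 week could be named. Dcn, Acta2, Tagln and the markers named at E14 were added after their values were seen. Members, lists and tests were chosen with earlier results of these data known.

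Hearts were not treated as paired by replicate number. Same-numbered hearts deviated together with correlations of -0.04 to 0.307, the highest between replicate 3 of 72 h and of MCM. Those hearts also shared undetected Xist and low atrial genes, so with so few hearts this check cannot exclude a pairing. The alternatives were the authors' table, no background correction, an offset of 50, detection on all arrays, no detection filter, another choice of probe, no intensity trend, array weights, a replicate block, each heart left out, adult wildtype as the control and, added after seeing the data, a term for whether Xist was detected.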

Additional observations from a re-analysis of the deposited data

Results flagged for a closer look

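The 1 week hearts differed from the 72 h hearts in 6 of 25 tested collagens (limma, adjusted p below 0.05 over all genes). Over all genes 23.2% were called higher at 1 week, so this count lies near the background share. The log2 difference was 1.58 for Col1a2, 1.23 for Col5a1, 0.72 for Col4a1, 0.76 for Col4a2, 1.56 for Col7a1 and 0.96 for Col16a1, each higher at 1 week. For Col1a2, Col5a1, Col7a1 and Col16a1 all 3 hearts at 1 week lay above all 3 at 72 h, and the share of all genes for which this held was not counted. For Col4a1 and Col4a2 the second 72 h heart lay among the 1 week hearts, and their calls held in 10 and 17 of 21 alternatives. Xist was detected in 2 of the 3 hearts at 72 h and in none at 1 week, and the tamoxifen schedule of each time is not known. Time after induction therefore cannot be told apart from these other differences between the 2 groups. No group held the 4 hearts needed to look for single outlying samples.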

How the results depend on the processing

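Beside the reported settings, 22 alternatives were run, 1 of them (a term for Xist) chosen after seeing the data. The count at 72 h against MCM was 0 in all of them. The 12 calls at 1 week against MCM became 9 to 13 when 1 heart was left out and 9 with detection required on all arrays. They became 17 with array weights and 14 with the Xist term, where 33.1% and 26.7% of all genes were called higher. Between 72 h and 1 week the 6 calls became 14 with array weights, 10 with the replicate block and 13 with the Xist term. In these settings 32.5%, 23.4% and 23.2% of all genes were called higher. With 1 heart left out the 6 calls became 4 to 13, 13 being without 72 h replicate 2, where 28.2% of all genes were called higher. The block moved the 1 call between adult wildtype and MCM hearts to 0 and changed neither other count it could be fitted for; it could not be fitted for the E14 comparisons. That 1 call (Col4a1) also became 0 without the intensity trend, 2 in the authors' table and with the Xist term, 7 with array weights and 0 to 4 when 1 heart was left out. With array weights 21.4% of all genes were called in either direction, and with the Xist term 4.84%. The E14 calls became 8 of 12 genes tested against adult wildtype and 10 of 12 against MCM with detection on all arrays. That setting removes genes whose chosen probe was detected at E14 alone. Leaving out 1 heart gave 15 to 19 and 16 to 20.

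Among differences of the named collagens called in the reported setting or in the alternative, the sign turned in 5. With adult wildtype as the control at 1 week it turned for Col4a1 (-0.03), Col4a2 (-0.01) and Col15a1 (-0.73). With another probe at E14 it turned for Col26a1 (-0.28 against adult wildtype and -0.17 against MCM). Differences called in neither setting also changed sign and are not in that count. At 72 h against MCM, Col4a2 went from 0.05 to as low as -0.33 and Col14a1 from 0.11 to -0.39. Over all genes, the 30 calls at 72 h against MCM became 11 with detection on all arrays, 540 with array weights and 57 without 72 h replicate 3. The 588 calls between adult wildtype and MCM hearts became 372, 2164 and, over single hearts left out, 190 to 1310, and the 764 at 72 h against adult wildtype became 2861 with array weights, 459 with the Xist term and 245 to 1254 over single hearts left out. Detection on all arrays tests fewer genes by construction; for the other changes the cause was not tested.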

Other observations

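The 2 levels of Col14a1 across hearts were set beside 3 atrial genes, chosen after its values were seen. In the hearts where Col14a1 was low, MCM replicate 3 (7.0) and 72 h replicate 3 (6.61), Myl7 read 9.08 and 10.83, Sln 8.62 and 10.54, and Myl4 10.7 and 12.32. In the other MCM and 72 h hearts Myl7 read 13.53 to 14.23, Sln 13.24 to 13.89 and Myl4 14.6 to 15.13. In the adult wildtype hearts Col14a1 was also low (6.96 and 7.09), but Myl7 read 13.29 and 13.28, Sln 13.34 and 13.35, and Myl4 14.4 and 14.75. In these groups the hearts with low Col14a1 were also the hearts without detected Xist, adult wildtype included, whereas the 1 week hearts lacked Xist and read 8.72 to 8.80. Whether atrial tissue or sex bears on Col14a1 was not tested, and in MCM and 72 h hearts the 2 cannot be told apart.

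In the second 72 h heart the matrix genes did not all stand at the 1 week level. Timp1, an inhibitor of matrix proteases, read 13.76 there and 13.74 to 14.14 at 1 week, and Cthrc1, a gene of activated fibroblasts, read 7.64 and 7.63 to 7.93. Acta2, the smooth muscle actin of activated fibroblasts and vessel walls, read 14.06 in that heart and 15.41 to 15.65 at 1 week. These genes were picked after their values were seen.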
